A study of Mus musculus with 4 samples.

Results

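Clathrin-mediated endocytosis pulls membrane and cargo into coated vesicles, and the genes described here encode the coat, its adaptors and the enzyme that cuts the vesicle free. They are the clathrin light chains Clta and Cltb, the heavy chain Cltc, the adaptor subunits Ap1b1, Ap2a1 and Ap2b1, the assembly proteins Snap91 (AP180) and Picalm, and the dynamins Dnm1 and Dnm2. All 10 listed genes were found by symbol or RefSeq identifier, of 17340 genes with listed exons and 10672 with a mean of at least 1 CPM (exon reads scaled for library depth). Their exons were followed in 4 RNA-seq libraries from N2A cells, a mouse neuroblastoma line. The libraries came from a Ptbp1 knockdown (an shRNA against ptbp1), a Ptbp2 knockdown (an shRNA against ptbp2), a double knockdown (both shRNAs), and cells that received a control shRNA. Every group, control included, was transfected with a lipid reagent for 5 h and then grown for 3 days, and the RNA was sequenced strand-specifically as paired reads of 100 bases. Each group held 1 library of transiently transfected cells. No spread between replicates could therefore be measured, no test was run, and intervals below cover counting error only.

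Heavy and light chains of clathrin form the triskelions of the coat. AP-2, with its large chains Ap2a1 (alpha) and Ap2b1 (beta), links the coat to the plasma membrane, while AP-1, with the beta chain Ap1b1, acts at the trans-Golgi network and endosomes. Picalm and the neuronal Snap91 bind membrane phosphoinositides, clathrin and vesicle SNAREs, and dynamins are GTPases that sever the neck of the bud, Dnm1 mainly in neurons and Dnm2 in most cells. Brain is known for clathrin light chains and AP-2 large chains that carry short inserts from alternative exons. Ptbp1 and Ptbp2 are RNA-binding splicing regulators that often keep neuronal exons out of mRNA, Ptbp1 in most cells and Ptbp2 mainly in developing neurons.

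By reads on the fixed exon list, Ptbp1 stood at 29.2% of its control level after Ptbp1 knockdown, at 114% after Ptbp2 knockdown and at 22.3% after double knockdown. Ptbp2 stood at 197%, 26.2% and 42.5% of control in the same order. Exon reads numbered 189.5 M to 236.2 M per library, where a read that spans exons counts more than once. Of 12 measured noradrenergic neuroblast markers, 11 had a mean of at least 1 CPM. Their summed levels were 1281 CPM after Ptbp1 knockdown, 1443 after Ptbp2 knockdown, 1075 after double knockdown and 1293 in control. Tubb3 was the largest part, at 403, 513, 351 and 487 CPM in the same order. Single markers differed more than the sums: Dbh had 191, 18.9, 53.7 and 51.0 CPM and Th 3.45, 0.165, 1.01 and 0.659. The neurofilament gene Nefl was near 0 in every library. None of 4 astrocyte and 3 measured microglial markers reached 1 CPM, while Pdgfra of the 4 fibroblast and Pecam1 of the 3 endothelial markers did by their mean, at up to 6.92 CPM in a library, reached by Pdgfra after Ptbp1 knockdown (1.70 CPM after Ptbp2 knockdown, 2.06 after double knockdown and 3.76 in control). In bulk RNA, fewer cells of a type and less RNA per cell cannot be told apart, and the part of other cell types in the results was not tested.

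The levels of the 10 genes differed little between libraries, and none passed 2-fold in any comparison. Among all genes of at least 1 CPM, 3.09% passed 2-fold after Ptbp1 knockdown against control, 2.51% after Ptbp2 knockdown and 2.65% after double knockdown. The double knockdown also held no member past 2-fold against the Ptbp1 knockdown, where 1.86% of all genes passed it, or against the Ptbp2 knockdown, where 2.17% did. With 10 genes and shares this low, a count of 0 is near the background. The median log2 difference of the members from control was -0.19, -0.14 and -0.06 after Ptbp1, Ptbp2 and double knockdown, beside -0.07, -0.00 and -0.03 over all genes. Levels were scaled by the median of ratios; scaling by total reads shifts the median of all genes to 0.15, 0.04 and 0.12, and then Clta and Snap91 after Ptbp1 knockdown and Clta, Cltc, Ap2a1 and Snap91 after double knockdown change sign.

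By exon reads per length, the heavy chain was the most abundant of the 10 in every library. Cltc, which forms the legs of the triskelion, had 109 RPKM (reads on listed exons per kb, depth-scaled) after Ptbp1 knockdown, 122 after Ptbp2 knockdown, 125 after double knockdown and 137 in control. Clta had 68.9, 80.7, 64.3 and 69.9 on this scale in the same order of libraries, and Cltb had 41.5, 25.7, 35.8 and 29.8. Clta was thus above Cltb in all 4 libraries, and the light chain Cltb was at its highest after Ptbp1 knockdown. The order of Clta and Cltc turns by the deposited FPKM: Clta had 105, 111, 99.1 and 99.0 FPKM and Cltc 88.9, 96.1, 96.8 and 121, so that Cltc was the higher in control alone.

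The large adaptor chains stood close together per length. Ap1b1 had 33.7, 47.7, 45.1 and 42.7 RPKM after Ptbp1, Ptbp2 and double knockdown and in control, Ap2a1 had 51.7, 45.4, 45.5 and 46.8, and Ap2b1 had 41.1, 44.4, 53.6 and 48.5. Their ranges over the 4 libraries overlapped, so no order among them held in all. Picalm had 56.5, 58.7, 58.7 and 72.8, highest in control, and Snap91 had 23.6, 17.9, 24.6 and 25.9, lowest after Ptbp2 knockdown.

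The dynamins were at low levels among the 10 genes, and their order differed between libraries. Dnm1 had 17.3 RPKM after Ptbp1 knockdown, 9.40 after Ptbp2 knockdown, 14.4 after double knockdown and 12.2 in control. Dnm2 had 11.5, 19.4, 12.6 and 17.9 in the same libraries. By exon reads per length, Dnm1 was above Dnm2 in both libraries with the Ptbp1 shRNA and below it in the others. By deposited FPKM, Dnm1 had 22.5, 11.4, 17.8 and 14.8 and Dnm2 8.21, 14.2, 9.57 and 13.4, so that in control Dnm1 was the higher. The log2 differences from control were 0.51, -0.37 and 0.24 for Dnm1 and -0.64, 0.11 and -0.51 for Dnm2 after Ptbp1, Ptbp2 and double knockdown. The widest differences of the other members were Snap91 at -0.53 after Ptbp2 knockdown and Cltb at 0.48 after Ptbp1 knockdown. The FPKM of the deposited tables gave 0.57, -0.35 and 0.25 for Dnm1 and -0.64, 0.08 and -0.44 for Dnm2, on the log2(FPKM + 1) scale. For Snap91 the deposited FPKM gave 1.17, 1.92 and 2.27, against -0.13, -0.53 and -0.07 by exon reads. Transcripts had been assembled in each library apart, and Snap91 had 13.0, 22.5, 28.9 and 5.22 FPKM after Ptbp1, Ptbp2 and double knockdown and in control; what part the assembly has in this was not tested.

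**Figure D1:**
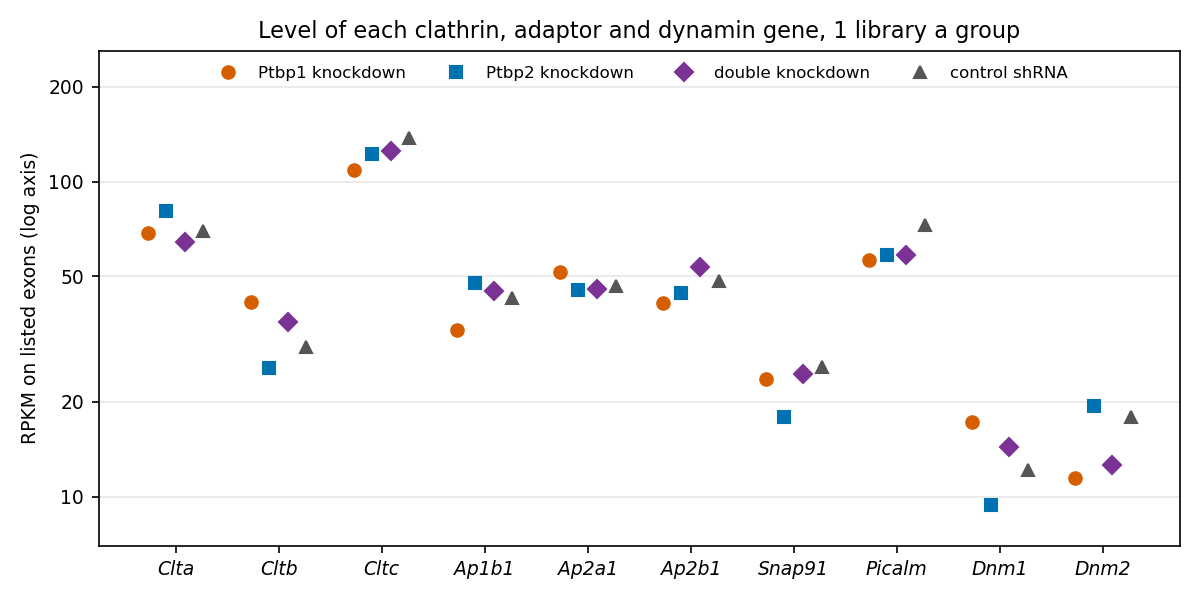
RPKM on listed exons (log axis) for the 10 genes in each of the 4 libraries, 1 point a library. No gene differs by 2-fold from control; by exon reads Cltc is the highest in every library, and the points of Dnm1 and Dnm2 change places between the libraries with and without the Ptbp1 shRNA.

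At least 1 exon of the 10 genes passed the threshold for exon choice in every comparison. That threshold and the 2-fold call for levels are unlike measures, so their counts cannot be set against each other. The 10 genes hold 203 listed middle exons of cassette events, 198 of which had at least 20 junction reads in each library, of 100166 such exons in the whole series. A cassette exon is joined to its neighbours on both sides or skipped by a junction between them. Junction inclusion averages the reads of the left and right inclusion junction and divides that average by its sum with the skipping reads. Minimum numbers of junction reads for these exons are set on this sum, in which inclusion reads are averaged. An exon was called alternative when inclusion lay from 5% to 95% in at least 1 library. This held for 17 exons of the 10 genes, at least 1 in each gene, of 7687 exons in the whole series. Of the other exons of the 10 genes, 179 were above 95% in all 4 libraries and 2 were below 5%.

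Differences of at least 20 percentage points were counted. After Ptbp1 knockdown against control, 3 of the 17 exons were higher and 0 lower, beside 3.06% and 1.31% of all alternative exons. After Ptbp2 knockdown against control, 0 were higher and 1 lower, beside 0.442% and 1.76%. After double knockdown against control, 6 were higher and 2 lower, beside 4.32% and 2.97%. Relative to the Ptbp1 knockdown, the double knockdown had 3 exons higher and 1 lower, beside 1.64% and 1.59%. Relative to the Ptbp2 knockdown it had 7 higher and 0 lower, beside 5.19% and 2.08%. The median absolute difference of the 17 exons was 9.13, 4.50 and 16.5 points after Ptbp1, Ptbp2 and double knockdown against control, beside 3.41, 3.40 and 4.00 points over all alternative exons. The comparisons with control share 1 control library. The Ap1b1 21-base, Ap2a1 66-base, and Clta and Cltb 54-base exons were below 5% in control and after Ptbp2 knockdown. They entered the 17 only through the libraries with the Ptbp1 shRNA, in which they were high. The Cltc 21-base exon entered through the Ptbp1 knockdown alone, at 10.2%. The Snap91 84-base exon at chr9:86686318-86686401 entered through the double knockdown alone, at 92.9%. Exons of the whole series could enter in the same way. The members were also chosen with earlier results known, so these counts describe them and test nothing.

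**Figure D2:**
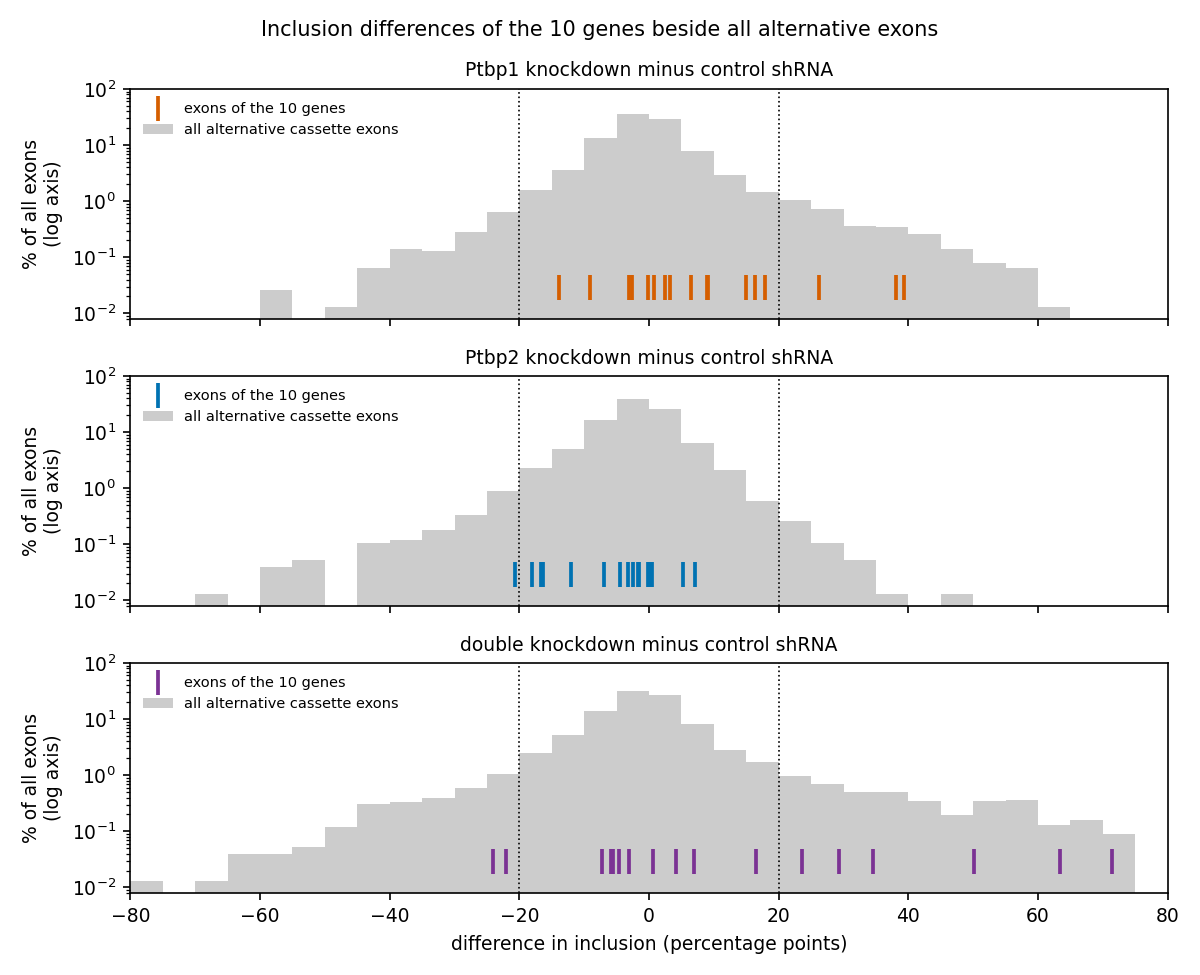
Difference in inclusion from control in percentage points (horizontal axis) for the Ptbp1, Ptbp2 and double knockdown. Grey bars give the percent of all 7687 alternative cassette exons in bins of 5 points (log axis), coloured ticks the 17 exons of the 10 genes, and dotted lines mark 20 points. After double knockdown 6 ticks lie beyond the right line and 2 beyond the left.

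The 17 exons were short and nearly all kept the reading frame. Their median length was 42.0 bases, beside 113 over all alternative exons, and 7 of the 17 had at most 27 bases, beside 257 of 7687. The length was a multiple of 3 in 16 of the 17 (94.1%), beside 44.5% of all alternative exons. The exception was the 160-base exon of Ap1b1. Of the 17 exons, 15 matched GENCODE transcripts by the lengths of the exon and its introns, and all 15 were coding there. For short exons the 2 inclusion junctions were unevenly counted: the junction on the right in genome order held a median of 6.11% of inclusion reads for exons of 3 to 15 bases and 50.2% for exons of 200 to 400 bases. The mean of both junctions is then a low estimate of inclusion, and the authors' SpliceTrap inclusion ratio is given beside it for the exons of the 10 genes under 100 bases.

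**Figure D3:**
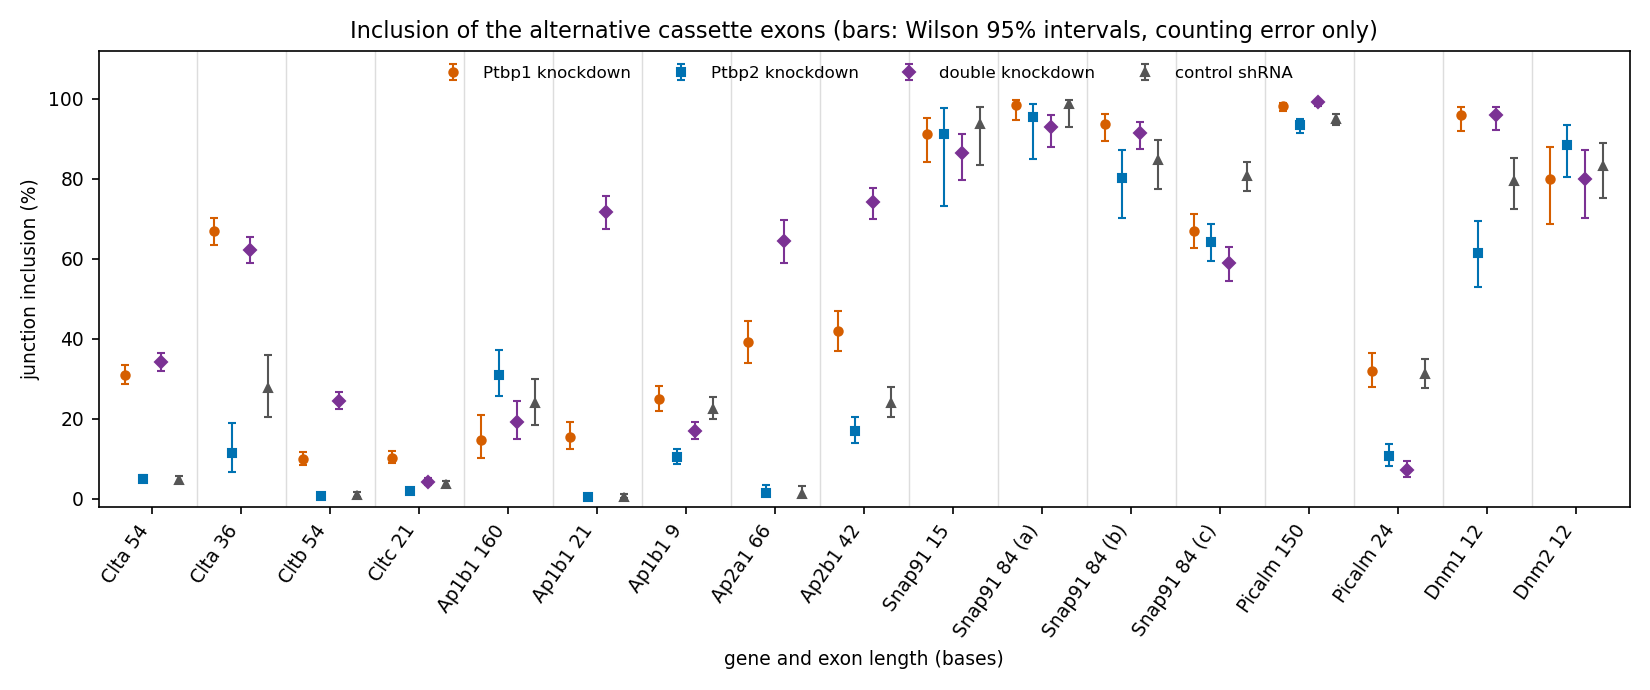
Junction inclusion in percent (vertical axis) of the 17 alternative cassette exons, named by gene and length, in the 4 libraries; bars are Wilson 95% intervals and letters number the 84-base exons of Snap91 along the transcript. The exons of Ap1b1 (21 bases), Ap2a1 and Ap2b1 stand highest after double knockdown, and the Picalm 24-base exon is low in both libraries with the Ptbp2 shRNA.

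Exons of both clathrin light chains were included more in the libraries with the Ptbp1 shRNA. Clta has a pair of neighbouring cassette exons of 54 and 36 bases (mm9 chr4:44043087-44043140 and chr4:44044272-44044307, plus strand), and Cltb has a 54-base exon (chr13:54698387-54698440, minus strand). They are shown because they carry the inserts of the light chains; capitals mark the exon and lower case 20 bases of each neighbouring exon, from GENCODE transcripts on GRCm38, 5′ to 3′. In the Clta 36-base sequence the letters before the exon are the end of the 54-base exon.
Clta 54-base exon: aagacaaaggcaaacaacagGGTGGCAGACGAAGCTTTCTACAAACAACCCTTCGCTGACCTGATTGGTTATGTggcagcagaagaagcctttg
Clta 36-base exon: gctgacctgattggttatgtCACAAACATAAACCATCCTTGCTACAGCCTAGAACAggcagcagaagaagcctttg
Cltb 54-base exon: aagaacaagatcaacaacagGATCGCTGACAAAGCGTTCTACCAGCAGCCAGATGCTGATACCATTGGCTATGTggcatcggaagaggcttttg
The 54-base exons of Clta and Cltb share 37 of 54 bases (68.5%) without gaps.

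Inclusion of the Clta 54-base exon was 30.9% (95% interval 28.7 to 33.3) after Ptbp1 knockdown, 4.96% (4.25 to 5.82) after Ptbp2 knockdown, 34.1% (31.9 to 36.4) after double knockdown and 4.77% (3.99 to 5.69) in control. Both libraries with the Ptbp1 shRNA were high, and the Ptbp2 knockdown and control overlapped. The differences from control were 26.2, 0.196 and 29.3 points, and the authors' ratio was 34.0%, 6.0%, 37.7% and 6.0%. The right inclusion junction of this event counts only transcripts that skip the 36-base exon. The mean of both junctions is therefore low, and more so where the 54-base exon is often joined to the 36-base exon. By the left junction alone, inclusion of the 54-base exon was 40.1%, 6.55%, 42.6% and 5.74% after Ptbp1, Ptbp2 and double knockdown and in control. The 36-base exon was measured on the trio whose left neighbour is the 54-base exon, while its right junction also counts transcripts that join the upstream exon straight to the 36-base exon. It was 67.0% (63.5 to 70.3) after Ptbp1 knockdown, 11.4% (6.66 to 18.9) after Ptbp2 knockdown, 62.3% (59.0 to 65.5) after double knockdown and 27.7% (20.3 to 35.9) in control. Both libraries with the Ptbp1 shRNA were high, and the differences from control were 39.3, -16.3 and 34.6 points. By the left junction alone, which concerns only transcripts with the 54-base exon and was looked at after the data were seen, inclusion was 70.5% (67.3 to 73.6; 569 of 807 reads) after Ptbp1 knockdown, 7.92% (4.07 to 14.9; 8 of 101) after Ptbp2 knockdown, 67.6% (64.6 to 70.4; 671 of 993) after double knockdown and 18.2% (12.1 to 26.4; 20 of 110) in control. On these reads the intervals of the Ptbp2 knockdown and control overlapped. SpliceTrap's ratio for this trio, which also uses exon coverage, was 67.6%, 2.8%, 64.8% and 8.4%. Reads that joined the upstream exon straight to the 36-base exon numbered 91, 14, 60 and 42.

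Cltb gave 9.97% (8.44 to 11.7) after Ptbp1 knockdown, 0.654% (0.300 to 1.42) after Ptbp2 knockdown, 24.5% (22.4 to 26.7) after double knockdown and 0.817% (0.468 to 1.58) in control for its 54-base exon. Here the double knockdown stood above the Ptbp1 knockdown by 14.5 points, while the Clta exon of the same length differed by 3.13 points between those libraries. Cltb is the light chain with the lower level per length. The authors' ratio for Cltb was 12.6%, 1.0%, 29.7% and 1.1%. Of the chains of clathrin itself, the heavy chain had no exon past the threshold. A 21-base exon of Cltc (chr11:86514563-86514583, minus strand) was at 10.2% (8.80 to 11.8), 1.96% (1.47 to 2.62), 4.23% (3.48 to 5.10) and 3.66% (2.98 to 4.50) after Ptbp1, Ptbp2 and double knockdown and in control. It was highest after Ptbp1 knockdown, by 6.54 points over control, and counted as alternative through that library alone. Its ratio was 15.7%, 3.0%, 6.8% and 5.7%.

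Each large adaptor chain had a short exon that was nearly absent or low in control and reached its highest inclusion after double knockdown. They were a 21-base exon of Ap1b1 (chr11:4933245-4933265, plus strand), a 66-base exon of Ap2a1 (chr7:52158832-52158897, minus strand) and a 42-base exon of Ap2b1 (chr11:83178297-83178338, plus strand). The sequences are shown since these exons had the widest ranges of the 17; capitals mark the exon as above.
Ap1b1 21-base exon: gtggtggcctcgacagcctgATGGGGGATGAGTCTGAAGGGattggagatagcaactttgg
Ap2a1 66-base exon: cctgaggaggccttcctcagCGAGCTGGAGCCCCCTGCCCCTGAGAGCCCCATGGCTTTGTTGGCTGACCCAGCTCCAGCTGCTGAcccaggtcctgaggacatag
Ap2b1 42-base exon: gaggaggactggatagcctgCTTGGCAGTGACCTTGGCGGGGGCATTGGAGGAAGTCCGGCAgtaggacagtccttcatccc
The 20 bases before the Ap1b1 and Ap2b1 exons share 15 letters, and the 20 bases after them share 8. These beta chains thus carry their exon after a like stretch, though the exons differ in length and the stretches after them are less alike.

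For the Ap1b1 21-base exon, inclusion was 15.4% (12.5 to 19.2) after Ptbp1 knockdown, 0.399% (0.136 to 1.17) after Ptbp2 knockdown, 71.8% (67.5 to 75.7) after double knockdown and 0.401% (0.0881 to 1.16) in control. The libraries with the Ptbp1 shRNA stood above the others, and their own intervals did not overlap. SpliceTrap gave 23.6%, 0.8%, 80.1% and 0.6%. The Ptbp2 shRNA went with a difference of 56.3 points in cells that also had the Ptbp1 shRNA and of -0.00203 points in cells that did not.

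The Ap2a1 66-base exon was at 39.1% (34.0 to 44.4), 1.52% (0.651 to 3.51), 64.5% (58.8 to 69.8) and 1.08% (0.368 to 3.12) after Ptbp1, Ptbp2 and double knockdown and in control. The pattern was that of Ap1b1 with a higher value after Ptbp1 knockdown. Differences were 38.1 points after Ptbp1 knockdown and 63.4 points after double knockdown against control, and 25.3 points between those knockdowns. The Ap2b1 42-base exon was in use in every library, at 41.9% (37.0 to 46.9), 17.0% (13.9 to 20.5), 74.1% (70.0 to 77.7) and 23.9% (20.5 to 27.8). It was lower by 6.93 points after Ptbp2 knockdown than in control and higher by 32.2 points after double knockdown than after Ptbp1 knockdown. The authors' ratio was 43.3%, 1.7%, 68.8% and 1.3% for Ap2a1 and 48.6%, 21.6%, 78.9% and 29.7% for Ap2b1.

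Ap1b1 had 2 further alternative exons with a different order of libraries. A 9-base exon (chr11:4940924-4940932) was at 24.9% (22.0 to 28.2), 10.3% (8.65 to 12.3), 16.9% (14.8 to 19.2) and 22.4% (19.8 to 25.3) after Ptbp1, Ptbp2 and double knockdown and in control. Both libraries with the Ptbp2 shRNA were low, and the Ptbp1 knockdown and control overlapped. Its ratio was 39.4%, 18.2%, 26.7% and 35.1%. A 160-base exon (chr11:4902971-4903130) was at 14.7% (10.2 to 20.8), 30.9% (25.6 to 37.2), 19.2% (14.8 to 24.3) and 23.8% (18.3 to 29.9), highest after Ptbp2 knockdown. Neither passed 20 points against control, and neither matched an annotated transcript, so no sequence is given.

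Exons of other genes with the most similar values over the 4 libraries were found by Euclidean distance among 5629 alternative exons with at least 50 junction reads in each library. For the Ap1b1 21-base exon the nearest were exons of Pip5k1c (78 bases, distance 10.8 points), Myo9a (54 bases, 11.5), Sympk (126 bases, 14.7) and Ablim1 (105 bases, 15.2). For Ap2a1 they were exons of Plec (15 bases, 4.19), Itprid2 (177 bases, 4.19), the endocytic scaffold Itsn2 (81 bases, 5.33) and Rapgef1 (153 bases, 7.29). For Ap2b1 they were exons of Clasp1 (27 bases, 9.97), Wnk1 (462 bases, 10.9), Phldb1 (141 bases, 11.4) and Tpd52l2 (27 bases, 13.8). The Plec exon, for instance, was at 39.7%, 2.19%, 62.5% and 4.67% after Ptbp1, Ptbp2 and double knockdown and in control.

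Picalm and Snap91 held the exons that were called lower. Picalm has a 24-base exon (chr7:97342783-97342806, plus strand), shown because it was the exon called lower after Ptbp2 knockdown.
Picalm 24-base exon: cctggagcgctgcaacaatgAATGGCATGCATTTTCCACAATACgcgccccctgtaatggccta
It was at 32.0% (27.8 to 36.3) after Ptbp1 knockdown, 10.6% (8.13 to 13.7) after Ptbp2 knockdown, 7.20% (5.31 to 9.48) after double knockdown and 31.2% (27.7 to 35.0) in control. Both libraries with the Ptbp2 shRNA were low, and the Ptbp1 knockdown overlapped control. The differences were -20.6 points for the Ptbp2 knockdown against control and -24.8 points for the double knockdown against the Ptbp1 knockdown. No read was counted on its right junction in any library, and the ratio was 44.5%, 16.6%, 11.4% and 43.8%. A 150-base exon of Picalm (chr7:97330729-97330878) was used at 98.2%, 93.4%, 99.1% and 94.9%, the most in both libraries with the Ptbp1 shRNA.

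Snap91 had 4 alternative cassette exons, all multiples of 3 in length. The 84-base exon at chr9:86669031-86669114 (minus strand) was at 66.9% (62.6 to 71.1) after Ptbp1 knockdown, 64.2% (59.4 to 68.7) after Ptbp2 knockdown, 58.8% (54.5 to 63.0) after double knockdown and 80.8% (76.9 to 84.3) in control. Every knockdown was below control, and the double knockdown passed 20 points with a difference of -22.0 points. Its ratio was 69.3%, 67.4%, 61.5% and 83.9%. Another 84-base exon (chr9:86684889-86684972) was at 93.6% (89.4 to 96.2), 80.1% (70.3 to 87.1), 91.5% (87.4 to 94.3) and 84.6% (77.4 to 89.8). By the authors' ratio it was at 92.1%, 66.4%, 89.3% and 69.7%, so that the Ptbp1 knockdown passed 20 points against control by that measure and not by junction reads. The remaining exons, of 84 bases (chr9:86686318-86686401) and 15 bases (chr9:86693665-86693679), lay between 86.5% and 98.7% in all libraries. Their ratios were 99.1%, 97.3%, 94.0% and 99.7% for the 84-base exon and 94.8%, 96.3%, 92.3% and 97.0% for the 15-base exon. Few reads lie behind some of these. After Ptbp2 knockdown the 15-base exon had 36 left, 6 right and 2 skipping reads, or 23.0 with inclusion reads averaged.

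A further exon of Snap91, looked at after its values were seen, has a long and a short form that differ by 15 bases at its start (chr9:86676539-86676553). The short form took 6.21% (4.44 to 8.64) of junction reads after Ptbp1 knockdown, 4.43% (2.89 to 6.75) after Ptbp2 knockdown, 31.4% (27.8 to 35.2) after double knockdown and 3.61% (2.40 to 5.41) in control. The double knockdown alone stood apart, with 190 reads of the short form against 32, 20 and 22 in the others. At other alternative acceptors of the 10 genes the libraries were closer. The 15-base acceptor of Picalm had an inclusion ratio of 27.6%, 32.1%, 30.5% and 28.5%, and a 3-base acceptor of Dnm2 had 60.7%, 58.8%, 59.9% and 66.4%.

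The dynamins carried mutually exclusive exons. Dnm1 and Dnm2 each have a pair of 139-base exons of which a transcript takes 1; they encode the known alternative stretch of the dynamin stalk. In Dnm1 the 5′ exon lies at chr2:32190202-32190340 and the 3′ exon at chr2:32188586-32188724 (minus strand), in Dnm2 at chr9:21283343-21283481 and chr9:21284851-21284989 (plus strand). Capitals mark the bases at which the exons of a pair differ.
Dnm1 5′ exon: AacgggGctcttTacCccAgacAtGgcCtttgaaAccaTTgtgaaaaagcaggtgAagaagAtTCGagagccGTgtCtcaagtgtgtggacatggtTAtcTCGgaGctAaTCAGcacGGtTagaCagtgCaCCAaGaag
Dnm1 3′ exon: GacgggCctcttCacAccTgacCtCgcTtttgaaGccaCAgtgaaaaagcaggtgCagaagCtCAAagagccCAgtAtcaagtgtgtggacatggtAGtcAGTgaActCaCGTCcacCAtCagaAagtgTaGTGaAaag
Dnm2 5′ exon: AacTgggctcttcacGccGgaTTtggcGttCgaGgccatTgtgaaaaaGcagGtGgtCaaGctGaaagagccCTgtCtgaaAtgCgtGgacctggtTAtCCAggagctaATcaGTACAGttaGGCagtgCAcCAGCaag
Dnm2 3′ exon: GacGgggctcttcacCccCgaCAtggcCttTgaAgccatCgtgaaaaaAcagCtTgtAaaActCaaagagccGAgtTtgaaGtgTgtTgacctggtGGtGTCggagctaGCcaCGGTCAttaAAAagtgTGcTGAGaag
Without gaps, the exons of a pair share 100 of 139 bases (71.9%) in Dnm1 and 95 of 139 (68.3%) in Dnm2. The 5′ exons of Dnm1 and Dnm2 share 110 bases (79.1%), and the 3′ exons 101 (72.7%).

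The share of the 3′ exon in Dnm1 was 15.5% (11.8 to 20.1) after Ptbp1 knockdown, 16.6% (11.2 to 23.1) after Ptbp2 knockdown, 55.9% (50.7 to 61.0) after double knockdown and 10.2% (7.05 to 14.9) in control. The double knockdown stood far above the others, which overlapped each other. In Dnm2 the share of the 3′ exon was 33.4% (26.9 to 40.5), 82.4% (77.4 to 86.2), 75.5% (69.7 to 80.5) and 36.4% (31.4 to 41.9) in the same libraries. Both libraries with the Ptbp2 shRNA were high, and the Ptbp1 knockdown overlapped control. The paralogs thus went to the 3′ exon in different libraries: Dnm1 differed from control by 5.37, 6.46 and 45.8 points after Ptbp1, Ptbp2 and double knockdown, and Dnm2 by -2.99, 45.9 and 39.1 points. The mutually exclusive pairs were defined after the data had been seen. Of these 2 pairs, 0, 1 and 2 passed 20 points in those comparisons, beside 2.56%, 5.13% and 23.1% of 39 alternative pairs in the series. Against the Ptbp1 knockdown, 2 pairs of the dynamins passed it after double knockdown (10.3% of all pairs), and against the Ptbp2 knockdown 1 did (25.6%). Reads on the exons themselves gave 14.6%, 15.9%, 54.5% and 12.3% for Dnm1 and 34.3%, 81.7%, 75.8% and 37.4% for Dnm2.

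**Figure D4:**
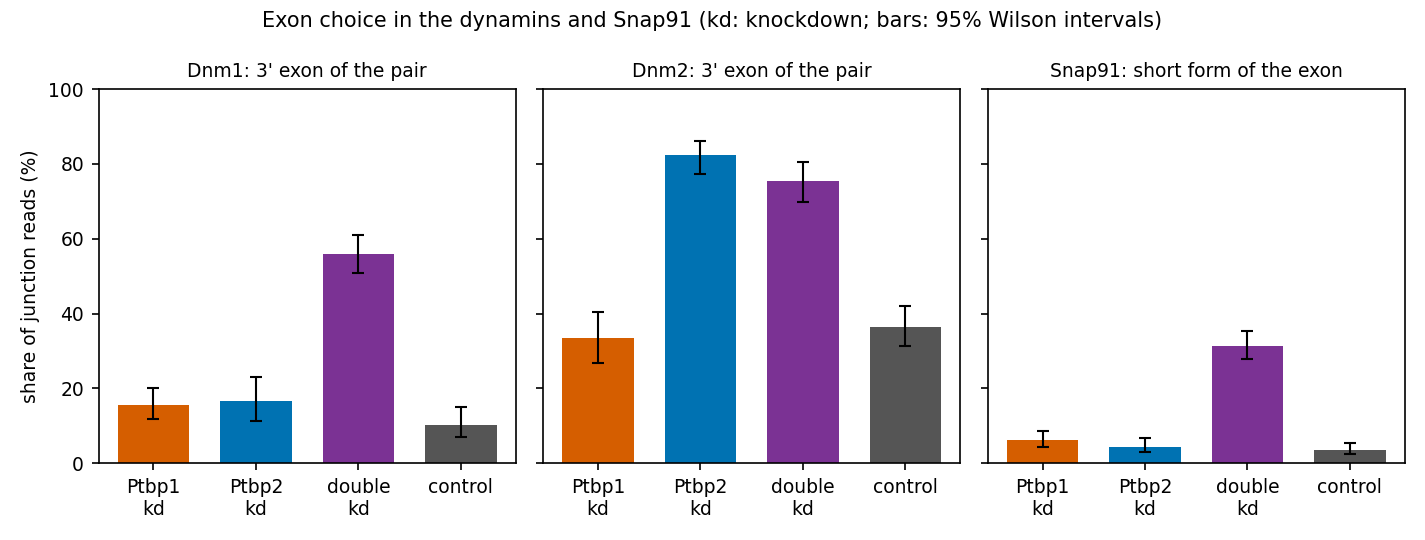
Share of junction reads in percent (vertical axis) for the 3′ exon of the Dnm1 and Dnm2 pairs and for the short form of the Snap91 exon, 1 bar a library with its 95% Wilson interval. Dnm1 and Snap91 are high after double knockdown, at 55.9% and 31.4%, while Dnm2 is high in both libraries with the Ptbp2 shRNA, at 82.4% and 75.5%.

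Dnm1 and Dnm2 also each have a cassette exon of 12 bases, at chr2:32178699-32178710 in Dnm1 and chr9:21295102-21295113 in Dnm2. They are shown to set the paralogs side by side, with capitals for the exon.
Dnm1 12-base exon: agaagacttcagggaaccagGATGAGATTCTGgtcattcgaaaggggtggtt
Dnm2 12-base exon: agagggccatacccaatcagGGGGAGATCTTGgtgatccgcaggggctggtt
The exons share 8 of 12 bases. In Dnm1 it was at 95.9% (92.0 to 97.9) after Ptbp1 knockdown, 61.4% (53.0 to 69.5) after Ptbp2 knockdown, 96.0% (92.3 to 98.0) after double knockdown and 79.5% (72.5 to 85.1) in control. Both libraries with the Ptbp1 shRNA were high and the Ptbp2 knockdown was the lowest. The difference of the double knockdown from the Ptbp2 knockdown was 34.6 points, and the ratio was 97.8%, 74.8%, 98.2% and 88.2%. No read was counted on the right junction of this exon in any library. By its left junction alone, inclusion was 97.9%, 76.1%, 98.0% and 88.6%, so the libraries lay closer together. In Dnm2 it was at 80.0% (68.7 to 87.9), 88.4% (80.4 to 93.4), 80.0% (70.3 to 87.1) and 83.1% (75.2 to 89.0), and all intervals overlapped. The ratio was 87.9%, 93.1%, 87.6% and 90.3%. Just outside the limit of 20, a 37-base exon of Dnm1 (chr2:32165971-32166007) had a SpliceTrap ratio of 25.9%, 5.6%, 27.8% and 3.8%. Its averaged inclusion reads plus skipping reads were 30.0, 12.5, 43.0 and 10.0. Just inside that limit was the 15-base exon of Snap91, at 23.0 on this count after Ptbp2 knockdown. At the other limit, the Ap1b1 85-base exon was at 99.1%, 97.7%, 98.6% and 99.5% and stayed out, while the Picalm 150-base exon came in through its 93.4% and 94.9%.

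The rest of the endocytic machinery was followed through a list of 75 genes, 67 of which had at least 1 CPM. At 2-fold against control, 0 of the 67 passed after Ptbp1 knockdown, 0 after Ptbp2 knockdown and 1 after double knockdown, beside the 3.09%, 2.51% and 2.65% of all genes given above. The gene was Eps15, an early scaffold of coated pits, with 107 CPM after Ptbp1 knockdown, 74.4 after Ptbp2 knockdown, 56.6 after double knockdown and 140 in control. It was below control in every knockdown, with log2 differences of -0.38, -0.91 and -1.30. The median log2 difference of the list was -0.11, -0.09 and -0.08.

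The list held 85 alternative cassette exons in 40 genes. Against control, 7 were higher and 3 lower after Ptbp1 knockdown, 2 higher and 1 lower after Ptbp2 knockdown, and 9 higher and 6 lower after double knockdown. As shares these stand beside 3.06% and 1.31%, 0.442% and 1.76%, and 4.32% and 2.97% of all alternative exons. In all, 19 exons of 17 genes passed 20 points in at least 1 of these comparisons, and the 12 with the largest difference are given here. All these counts take overlapping forms of an exon as separate exons. Among the called exons this concerns Necap2, higher after Ptbp1 and double knockdown, and Synj2, lower after double knockdown. For the longer Synj2 form no left-junction read was counted in control or after Ptbp2 or double knockdown. Its call therefore came from right-junction and skipping reads, and both Synj2 forms share those junctions.

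Of the 12, 8 were higher than control after double knockdown, with the overlapping exons of Necap2 counted apart. Among these, the Itsn2 and Trip10 exons were below 5% in control and after Ptbp2 knockdown. They counted as alternative only through the libraries with the Ptbp1 shRNA, in which they were high. The 15-base exon of Fnbp1 (chr2:30900402-30900416), an F-BAR protein, was at 56.1%, 4.78%, 77.5% and 8.57% after Ptbp1, Ptbp2 and double knockdown and in control, with a ratio of 70.2%, 9.1%, 86.4% and 13.9%. The 81-base exon of Itsn2 (chr12:4647719-4647799) was at 34.3%, 0%, 63.4% and 0%; after Ptbp2 knockdown and in control no inclusion read was counted, with upper interval limits of 1.51% and 1.05%. The 93-base exon of Bin1, which encodes amphiphysin 2, was at 59.5%, 43.0%, 73.9% and 32.1%. All were highest after double knockdown and above control after Ptbp1 knockdown.

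The 168-base exon of Trip10 (chr17:57396283-57396450), another F-BAR protein, was at 27.3%, 2.60%, 42.4% and 3.97% after Ptbp1, Ptbp2 and double knockdown and in control. The 24-base exon (chr16:90971809-90971832) of Synj1, the phosphoinositide phosphatase that uncoats vesicles, was at 73.5%, 42.9%, 79.8% and 44.7%, with a ratio of 82.3%, 53.7%, 86.9% and 57.2%. Necap2 had exons of 137 and 115 bases that overlap (the longer at chr4:140627496-140627632), at 67.4%, 49.6%, 85.6% and 40.4% for the longer and 72.9%, 59.6%, 90.2% and 48.3% for the shorter. Sh3glb1, which encodes endophilin B1, had a 39-base exon (chr3:144364772-144364810) at 34.5%, 60.5%, 72.8% and 14.6%, higher after Ptbp2 knockdown than after Ptbp1 knockdown.

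Exons of 4 genes were lower. The 123-base exon of Pacsin2 (chr15:83210114-83210236), an F-BAR protein that binds dynamin, was at 78.9%, 93.6%, 50.3% and 94.0% after Ptbp1, Ptbp2 and double knockdown and in control. The 75-base exon (chr7:5044914-5044988) of Epn1 (epsin 1, a membrane-bending cargo adaptor) was at 77.0%, 70.5%, 51.0% and 90.4%. Eps15l1, the paralog of Eps15, had a 133-base exon (chr8:74882212-74882344) at 42.2%, 50.8%, 35.4% and 69.8%, below control in every knockdown. A 498-base exon (chr4:102593627-102594124) of Sgip1, a relative of the FCHo proteins, was at 86.8%, 47.3%, 77.2% and 88.8%, lowest after Ptbp2 knockdown.

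**Figure D5:**
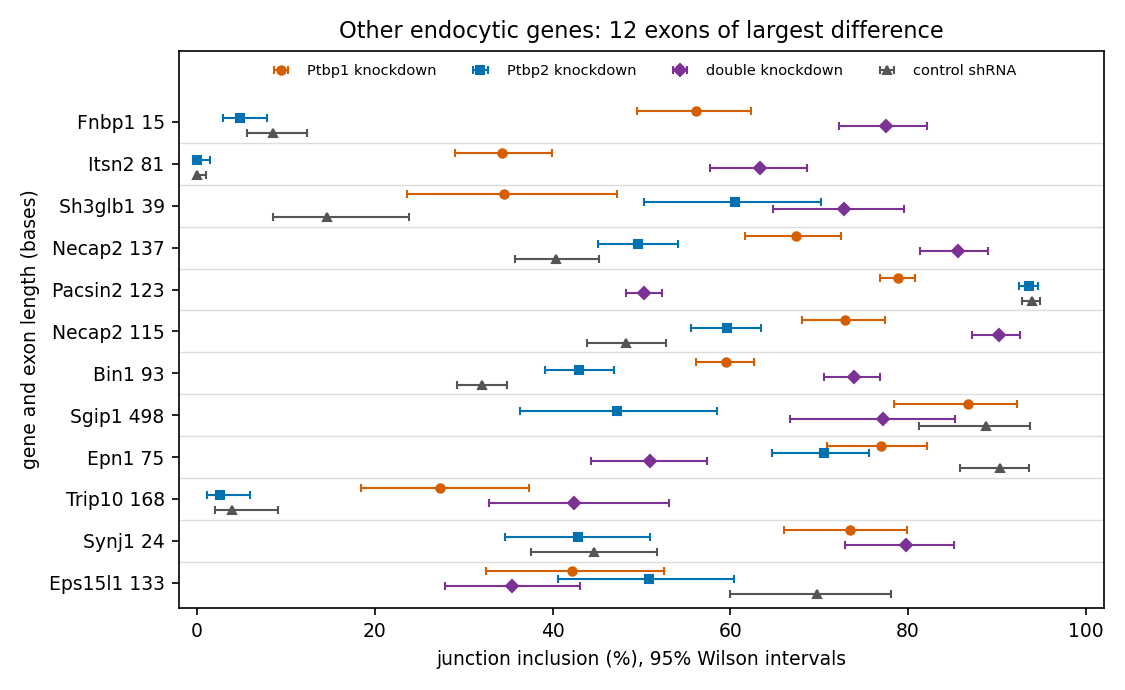
Junction inclusion in percent (horizontal axis, bars are 95% Wilson intervals) of the 12 exons of other endocytic genes with the largest difference from control, named by gene and exon length. Fnbp1 and Itsn2 stand highest after double knockdown, at 77.5% and 63.4%, and Pacsin2 stands lowest there, at 50.3%.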

How the data were processed

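RNA of 4 N2A libraries, 1 a group, was sequenced; the submitters' processing notes name CASAVA, TopHat and Cufflinks and the build mm9, and versions are not given in the sources used here. The authors' deposited SpliceTrap tables hold junction read counts for trios of exons, exon coverage (a signal) and inclusion ratios (fractions, printed here as percent). The authors' Cufflinks tables hold FPKM, deposited on an unusual scale and rescaled here by each library's sum of FPKM times length. Transcript files also hold a score, per the file headers, of which only coordinates and identifiers served.

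Gene levels were reads on distinct listed exons (coverage times size over 100), scaled by the median of ratios, as log2(CPM + 0.1), for genes with a mean of at least 1 CPM; the call was 2-fold. FPKM differences used a pseudocount of 1. Inclusion used junction counts, with Wilson 95% intervals and a call at 20 points. The averaged inclusion reads plus the skipping reads had to reach 20 in each library. For each middle exon 1 event was kept. PCR reads are not independent molecules, so intervals cover counting error only. Scripts (Python 3.11.15, pandas 2.3.3, scipy 1.17.1) were tested on simulated data. No test between groups was run, since each group has 1 library. Trios took gene names from transcript coordinates. Sequences came from GENCODE vM21 transcripts (GRCm38), matched by exon and intron lengths; coordinates are mm9.

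Named were all 10 genes and their alternative exons; of 75 pathway genes, those called against control, at most 12 exons by difference; and the 4 nearest exons to each of the 3 members with the widest range. The members and lists were chosen with earlier results of these data known. Alternatives were other scalings, pseudocounts, read minimums, FPKM and other inclusion measures. The result of 1 other marker list is not reported here.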

Additional observations from a re-analysis of the deposited data

Results flagged for a closer look

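The 42-base exon of Ap2b1 was picked out because the Ptbp2 shRNA went with opposite directions in cells with and without the Ptbp1 shRNA. With it, inclusion was 74.1% after double knockdown against 41.9% after Ptbp1 knockdown, a difference of 32.2 points. Without it, inclusion was 17.0% after Ptbp2 knockdown against 23.9% in control, a difference of -6.93 points. The difference between these differences was not tested, since each group has 1 library.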

How the results depend on the processing

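No paired analysis was possible because each group has 1 library, and none could be left out for the same reason. By FPKM, 1 member (Snap91) passed 2-fold in each knockdown against control and in the double against the Ptbp1 knockdown, in place of 0. Its FPKM differences from control, 1.17, 1.92 and 2.27 on the log2 scale, have the opposite direction to those by exon reads, -0.13, -0.53 and -0.07. Of 30 single gene differences from control, 6 changed sign by FPKM, 6 with total reads as scaling and 2 with the upper quartile. Of 51 single exon differences, 1 changed sign by ratio, 2 by the upstream junction and 1 by the downstream junction. Pathway genes past 2-fold by FPKM numbered 5, 2 and 4 after Ptbp1, Ptbp2 and double knockdown against control, 3 in the double against the Ptbp1 knockdown and 4 against the Ptbp2 knockdown, in place of 0, 0, 1, 1 and 1. Scaling by total reads gave 1 pathway gene after Ptbp1 knockdown, and a pseudocount of 1 gave 0 in the double against either single knockdown. Of all genes, 547 passed after Ptbp1 knockdown with total reads as scaling, in place of 330, and without a minimum level 731 passed there, 459 after double knockdown, 416 in the double against the Ptbp1 knockdown and 380 against the Ptbp2 knockdown.

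Of the member exons, 5 passed 20 points after Ptbp1 knockdown by SpliceTrap ratio and 5 by the upstream junction, in place of 3. With inclusion reads corrected for length, 2 passed after Ptbp2 knockdown in place of 1. By the downstream junction 4 passed after double knockdown in place of 8. Both Clta exons and the Snap91 84-base exon at chr9:86669031-86669114 fell away. On that junction, double knockdown and control gave 22.6% and 3.78% (Clta 54), 55.1% and 35.3% (Clta 36) and 64.9% and 84.4% (Snap91). The Picalm 24-base exon also fell away, with no read counted on that junction in any library. Pathway exons numbered 5 after Ptbp2 knockdown by ratio, in place of 3, and 5 in the double against the Ptbp1 knockdown with at least 50 reads, in place of 9. Of all alternative exons, a threshold of 10 points gave 1076, 933 and 1508 calls after Ptbp1, Ptbp2 and double knockdown against control, and 973 and 1536 in the double against the Ptbp1 and the Ptbp2 knockdown. With at least 50 reads, 107 passed after Ptbp2 knockdown and 159 in the double against the Ptbp1 knockdown. The cause was not tested. Of single gene differences, 24 moved and 6 did not by FPKM. Of single exon differences, 14 moved and 37 did not by ratio. Depth limits the low-count exons: alternative member exons numbered 15 at a minimum of 50 reads and 18 at 10.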
